A study of Homo sapiens with 9 samples.

Results

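The genes of polyamine metabolism were followed in LAN5 cells after knockdown of MYCN or HAND2. They were the 10 rows of the deposited table of CPM (a gene's reads as a share of the library's reads assigned to genes, scaled to the same total in each library) that carried the symbols ODC1, AMD1, SRM, SMS, OAZ1, OAZ2, AZIN1, SAT1, PAOX and SMOX, out of 25084 genes. All 10 reached 1 CPM in 3 or more libraries and so were tested, among 14495 genes that did. LAN5 is an established neuroblastoma line with extra copies of MYCN. Its cells were nucleofected with a control siRNA (siCTR), with the MYCN siRNA labelled siMYCN_2 or with the HAND2 siRNA labelled siHAND2_3, and RNA was taken 72 h later from 3 libraries per group, with no other genetic or drug difference named. Each target was thus lowered with 1 siRNA in 1 cell line, and the labels do not say whether the replicates were separate cultures, so p-values measure the spread between these libraries. In bulk RNA, fewer cells of a kind and less RNA per cell cannot be told apart. MYCN and HAND2 are transcription factors of the sympathetic lineage, and the study set out to find the genes they regulate.

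Polyamines (putrescine, spermidine and spermine) are small cations that bind nucleic acids and are needed for growth. Ornithine decarboxylase (ODC1) makes putrescine from ornithine. AMD1 supplies the aminopropyl donor with which SRM makes spermidine and SMS makes spermine. Antizymes (OAZ1, OAZ2) bind ODC1 and send it to the proteasome, the antizyme inhibitor AZIN1 binds the antizymes in its place, and SAT1, PAOX and SMOX acetylate or oxidise the higher polyamines. ODC1 is a textbook target of MYC-family factors, which bind the E-box CACGTG, and polyamine synthesis is a known feature of MYCN-amplified neuroblastoma.

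Promoter sequences of 5 members that passed the test in at least 1 knockdown are shown first, because the E-box is the site through which MYCN is known to act. RefSeq promoter windows (GRCh38.p14, 250 bases before to 50 after an annotated start) matched 7 of the 10 members. AZIN1, PAOX and SMOX had no window. The letters CACGTG, which read the same on both strands, occurred 2 times in 1 of the 2 windows of ODC1, at positions -29 and 6 from the start of that window. The other ODC1 window (chr2:10448278-10448577), at the gene's start in the deposited table, did not hold them. In the window of SRM they occurred 1 time, at position -199. The windows of SMS, AMD1, OAZ1, OAZ2 and SAT1 did not hold these letters. The printed ODC1 stretch (chr2:10447988-10448061, minus strand) lies in intron 1 of the canonical ODC1 transcript and spans a second RefSeq start. The printed stretches of SRM (chr1:11060019-11060268, minus strand), AMD1 (chr6:110874535-110874784, plus strand), OAZ1 (chr19:2269236-2269485, plus strand) and OAZ2 (chr15:64703282-64703531, minus strand) are the 250 bases before the start of a RefSeq window, which can differ from the gene's start in the deposited table. AMD1 has 3 RefSeq starts, and the window shown is that of the most downstream one. Its last bases lie past the start in the deposited table (chr6:110874770), and it lies inside the RefSeq gene, whose most upstream start is at 110814617. All are written 5′ to 3′ on the gene's strand, and capitals mark CACGTG.
ODC1: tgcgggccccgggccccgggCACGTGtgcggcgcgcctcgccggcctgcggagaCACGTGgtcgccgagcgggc
SRM: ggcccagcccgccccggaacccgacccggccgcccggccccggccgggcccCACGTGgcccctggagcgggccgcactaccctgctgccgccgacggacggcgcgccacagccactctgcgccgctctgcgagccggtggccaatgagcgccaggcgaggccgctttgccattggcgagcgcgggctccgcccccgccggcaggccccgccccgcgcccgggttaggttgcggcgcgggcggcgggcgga
AMD1: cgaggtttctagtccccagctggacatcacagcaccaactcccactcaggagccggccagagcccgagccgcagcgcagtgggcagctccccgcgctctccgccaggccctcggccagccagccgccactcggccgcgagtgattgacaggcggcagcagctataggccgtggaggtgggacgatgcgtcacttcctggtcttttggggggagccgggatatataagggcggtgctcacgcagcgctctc
OAZ1: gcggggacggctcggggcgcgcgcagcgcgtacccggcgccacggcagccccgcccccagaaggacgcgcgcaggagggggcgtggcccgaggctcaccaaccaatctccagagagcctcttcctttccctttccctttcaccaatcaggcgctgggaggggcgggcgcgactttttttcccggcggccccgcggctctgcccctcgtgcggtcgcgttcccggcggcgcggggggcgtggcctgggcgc
OAZ2: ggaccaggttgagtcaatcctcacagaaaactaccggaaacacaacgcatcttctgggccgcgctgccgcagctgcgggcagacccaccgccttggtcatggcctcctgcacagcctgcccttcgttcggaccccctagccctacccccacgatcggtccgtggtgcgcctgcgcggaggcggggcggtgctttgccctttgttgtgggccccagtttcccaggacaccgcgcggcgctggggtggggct

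Of 35116 RefSeq windows, of tested and other genes, 7.26% held CACGTG. A gene can have several windows. The share per tested gene was larger, with 1325 genes that held it in at least 1 window and 9039 in none. Among the tested genes with a window, 21.1% of the 1325 genes with CACGTG and 10.9% of the 9039 genes without it were lower in siMYCN. The shares that were higher were 19.6% and 27.3%. Genes with CACGTG were thus more often lower and less often higher than genes without it, though nearly as many of them rose as fell. The balance of higher and lower calls moved with the scaling of the libraries. Over all tested genes, 68.3% of the siMYCN calls were higher in the main fit and 51.2% after median-ratio rescaling. The motif shares were not computed after rescaling. In siHAND2, 20.9% of the genes with CACGTG and 11.7% of those without were lower, and 14.4% and 19.6% were higher. The letters CATCTG, the E-box form linked to HAND2 and searched on both strands (as CAGATG on the other), occurred in 14.7% of the windows. Of the 1389 tested genes with CATCTG 13.5% were lower and 22.1% higher in siHAND2, beside 12.8% and 18.4% of the 8975 without it. Among the members they were found only in the window of OAZ2, at position 4, outside the stretch shown and with no overlap with CACGTG. These matches describe letters in a window and do not locate binding.

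Library depth, read from the smallest step between low CPM values, was 21.1 M to 32.7 M reads assigned to genes. MYCN read 1848, 1894 and 1786 CPM in the control libraries, 1338, 1245 and 1285 CPM under siMYCN and 898, 969 and 877 CPM under siHAND2, with no overlap between groups. Its means were 1842 ± 54.2 CPM in siCTR, 1289 ± 47.0 CPM in siMYCN and 914 ± 48.4 CPM in siHAND2 (SD, n = 3 each). HAND2 was 501 ± 13.7, 571 ± 15.9 and 272 ± 7.65 CPM in the same order, so each targeted transcript was lower under its own siRNA. Of the noradrenergic neuroblastoma markers, 7 of 7 passed the filter, and their summed level was 1306 to 1423 CPM in the control libraries, 1777 to 1843 CPM under siMYCN and 1407 to 1552 CPM under siHAND2. In siMYCN 6 of the 7 rose, beside 24.5% of all tested genes called higher. In siHAND2 the members went different ways: DBH fell from 263 ± 18.2 to 130.1 ± 5.65 CPM (SD, n = 3 each), TH and DDC also fell, STMN2 and ISL1 rose, and CHGA and CHGB did not pass the test. TH was the weakest of these markers, at 1.18 to 4.42 CPM over all libraries. Stromal markers, of which 6 of 7 passed the filter, summed to 217 to 232 CPM in siCTR, 266 to 274 CPM in siMYCN and 563 to 643 CPM in siHAND2. Of these 6, 5 rose in siMYCN and 6 in siHAND2, beside 24.5% and 18.1% of all tested genes called higher. DCN, at 0.374 to 0.522 CPM in siCTR, passed the filter only through the knockdown libraries, so the filter favoured a rise of DCN. COL1A1, the marker left out by the filter, went the other way, with means of 0.720 CPM in siCTR, 0.507 CPM in siMYCN and 0.363 CPM in siHAND2. The part of both marker lists in the results below was not tested. None of 4 Schwann cell markers passed the filter (summed level 1.80 to 2.68 CPM over all libraries), nor did PTPRC or CD68, the 2 blood cell markers analysed here (0.263 to 0.655 CPM).

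Per kilobase of canonical transcript, the scale on which genes can be compared with each other, the level in siCTR was highest for OAZ1 (207 ± 0.863 CPM per kb, SD, n = 3) and lowest for PAOX (0.95 ± 0.112 CPM per kb). Between them, in falling order, were SMS (135 ± 4.45), ODC1 (108 ± 2.91), AZIN1 (77.7 ± 0.367), AMD1 (56.3 ± 0.868), OAZ2 (24.2 ± 0.0919), SRM (17.8 ± 1.71), SAT1 (9.46 ± 0.295) and SMOX (2.14 ± 0.27 CPM per kb). The libraries of neighbours in this order did not overlap in any of the 3 groups. The order was the same in siHAND2. In siMYCN, AZIN1 (89.4 ± 3.58 CPM per kb) lay above ODC1 (80.1 ± 1.42 CPM per kb), a reversal of the siCTR order. In CPM not divided by length, AZIN1 lay above ODC1 in every group. The reversal thus rests on the canonical lengths used, 4196 bases for AZIN1 and 2476 for ODC1. Per kilobase, the oxidases and the acetyltransferase stood lowest in every group.

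**Figure D1:**
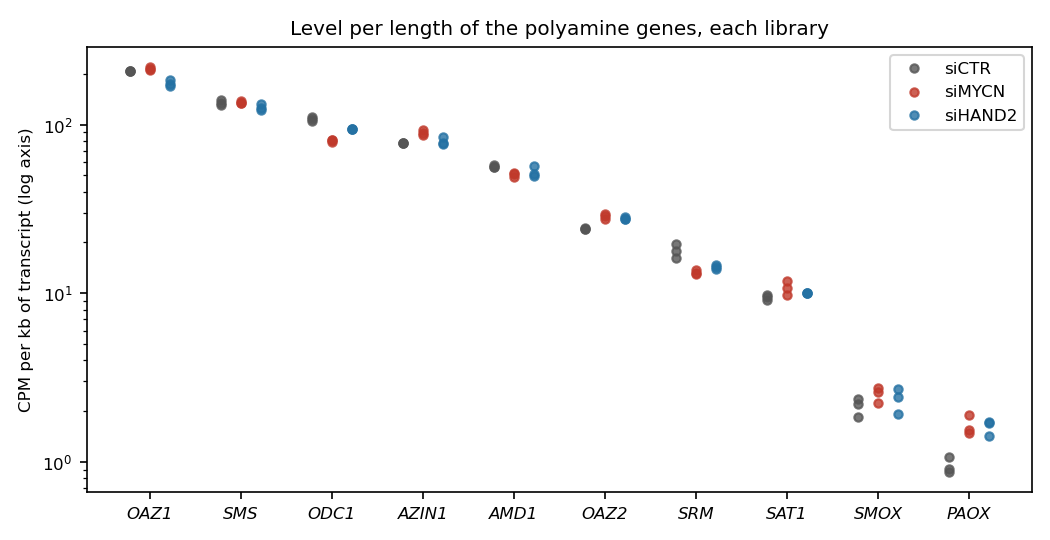
Level of the 10 polyamine genes in CPM per kilobase of canonical transcript (vertical log axis), with genes ordered by their siCTR mean; each point is 1 library, grey siCTR, red siMYCN, blue siHAND2. On this scale OAZ1 is highest and PAOX lowest in every group, and AZIN1 lies above ODC1 only in siMYCN.

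Setting siMYCN against siCTR shows which of these transcripts differ when MYCN is lowered. HAND2 was at 114% of its siCTR mean there, and its part in these differences was not tested. ODC1, SRM and AMD1, which are enzymes of synthesis, fell, while the antizyme OAZ2, the antizyme inhibitor AZIN1 and the oxidase PAOX rose. The remaining members (SMS, OAZ1, SAT1 and SMOX) did not pass the test. This was 6 of 10 members past an adjusted p of 0.05 (limma on log2(CPM + 1) over 9 libraries, Benjamini-Hochberg adjustment over all tested genes), beside 35.9% of all tested genes. Of all tested genes, 11.4% were called lower and 24.5% higher. The median difference over the 10 members was 0.11 on the log2 scale, beside 0.06 over all tested genes, and the median absolute difference was 0.20 beside 0.14. In 7 of 10 members the siMYCN and siCTR libraries did not overlap, as for 49.5% of all tested genes.

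In the same way, siHAND2 was set against siCTR. MYCN was also lower there, at 49.6% of its siCTR mean. The parts of HAND2 and MYCN in this comparison cannot be told apart. ODC1, SRM and OAZ1 fell, and OAZ2 and PAOX rose, which was 5 of 10 members beside 29.9% of all tested genes (limma, Benjamini-Hochberg adjusted p under 0.05; 11.8% of all tested genes were lower and 18.1% higher). The median difference over the members was -0.03, beside 0.04 over all tested genes, and the median absolute difference was 0.16 beside 0.12. In 6 of 10 members the libraries of the groups did not overlap, as for 42.4% of all tested genes. Both comparisons use the same siCTR libraries. The direct comparison of siHAND2 with siMYCN separated ODC1, OAZ1 and AZIN1, which was 3 of 10 members, a share near the 26.9% of all tested genes (11.4% higher and 15.5% lower in siHAND2). There 5 of 10 members did not overlap, as for 38.7% of all tested genes.

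**Figure D2:**
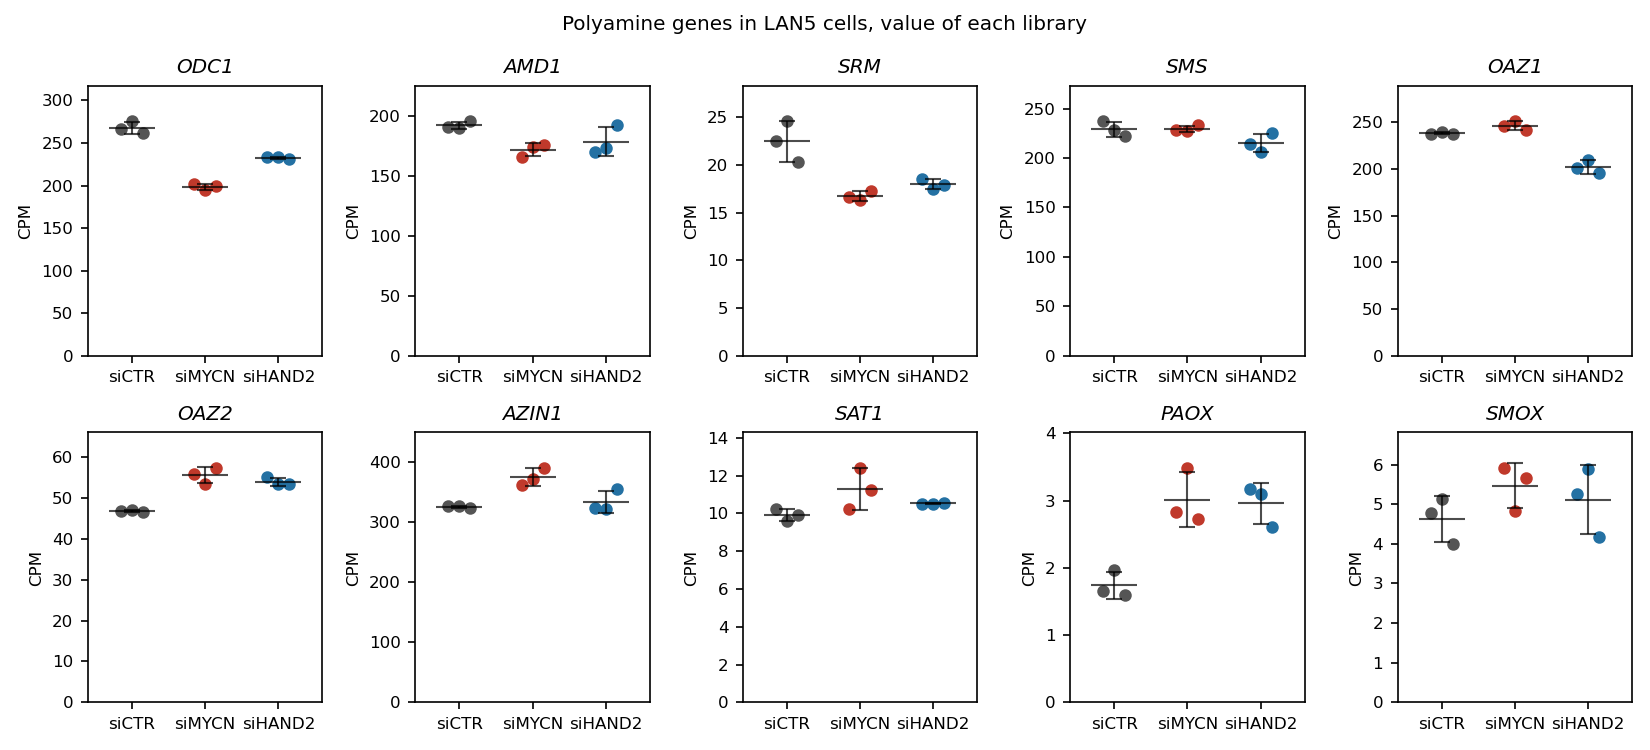
CPM of the 10 polyamine genes in each library (points; vertical axes start at 0), with the mean (line) and SD (bar) of the 3 libraries per group. ODC1 and SRM are lower in every siMYCN and siHAND2 library than in any siCTR library, OAZ1 is lowest in siHAND2, and OAZ2 is higher in both knockdowns.

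ODC1 (chr2:10439968-10448327, GRCh38), the rate-limiting enzyme of polyamine synthesis, had CPM levels of 267, 276 and 261 in the control libraries, 201, 194 and 199 under siMYCN and 234, 233 and 231 under siHAND2. The 3 groups did not overlap, with siMYCN lowest and siHAND2 between. With siMYCN, ODC1 fell by 0.43 on the log2(CPM + 1) scale (limma, standard error 0.04, adjusted p = 4.46e-07) and kept 74.0% of its control mean. With siHAND2 it fell by 0.20 (limma, standard error 0.04, adjusted p = 0.000797) and kept 87.0%. The direct comparison put siHAND2 above siMYCN by 0.23 (95% interval 0.15 to 0.31, limma, adjusted p = 0.000223). MYCN itself had the opposite order, at 70.0% of its siCTR mean in siMYCN and 49.6% in siHAND2. The smaller decrease of ODC1 stood in the group with the lower MYCN transcript. The part of the MYCN level in these ODC1 differences was not tested. In siHAND2 the MYCN and HAND2 transcripts were both lower, so their parts cannot be told apart there. All 3 ODC1 results kept their direction and call under each of the 18 alternatives run.

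SRM (chr1:11054584-11060020), spermidine synthase, had CPM levels of 22.5, 24.6 and 20.3 in the control libraries, 16.6, 16.3 and 17.3 under siMYCN and 18.5, 17.4 and 17.9 under siHAND2. All 6 knockdown libraries lay below all 3 siCTR libraries, and those of siMYCN lay below those of siHAND2. SRM fell by 0.40 in siMYCN (standard error 0.07, limma, adjusted p = 0.000334) and by 0.30 in siHAND2 (limma, adjusted p = 0.00362). These groups held 74.6% and 80.0% of the control mean. The difference between the knockdowns, 0.10 (95% interval -0.05 to 0.24, limma, adjusted p = 0.337), did not pass the test. SRM has 3 annotated processed copies by name (SRMP1 to SRMP3). The 2 of them analysed here had a summed mean of 0.297 CPM.

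AMD1 (chr6:110874770-110898879), S-adenosylmethionine decarboxylase, had CPM levels of 191, 191 and 196 in the control libraries, 166, 174 and 176 under siMYCN and 170, 173 and 193 under siHAND2. The siMYCN libraries all lay below siCTR, while siHAND2 replicate 3 reached into the siCTR range. AMD1 fell by 0.16 in siMYCN (standard error 0.05, limma, adjusted p = 0.0153). That call was lost without siCTR replicate 3 (-0.15, adjusted p = 0.0569), without siMYCN replicate 1 (-0.13, adjusted p = 0.0695) and with no intensity trend (adjusted p = 0.0567). In siHAND2 the difference was -0.11 (limma, adjusted p = 0.101). It passed the test without siHAND2 replicate 3 (-0.16, adjusted p = 0.00541), after median-ratio rescaling (-0.15, adjusted p = 0.0186) and after quantile normalization (-0.13, adjusted p = 0.045).

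SMS (chrX:21940709-21994837), spermine synthase, had CPM levels of 237, 229 and 222 in the control libraries, 228, 227 and 233 under siMYCN and 214, 206 and 225 under siHAND2. The siMYCN libraries lay inside the siCTR range, and those of siHAND2 lay below those of siMYCN. The difference was 0.00 in siMYCN (0.002, 95% interval -0.09 to 0.09, limma, adjusted p = 0.978), with a sign that turned with the scaling of the libraries. In siHAND2 it was -0.09 (limma, adjusted p = 0.113), and it passed the test after median-ratio rescaling (-0.13, adjusted p = 0.0201), after quantile normalization (-0.12, adjusted p = 0.0266) and without siHAND2 replicate 3 (-0.13, adjusted p = 0.0261). The knockdowns differed by -0.09 (limma, adjusted p = 0.112), which also passed the test without siHAND2 replicate 3 (-0.13, adjusted p = 0.0284). Of the synthases, SRM thus fell with siMYCN while the interval of SMS spanned 0.

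The antizymes bind ODC1 and block its activity. OAZ1 (chr19:2269509-2273490), the main ODC1 antizyme, had CPM levels of 237, 239 and 238 in the control libraries, 246, 251 and 241 under siMYCN and 201, 210 and 195 under siHAND2. The siHAND2 libraries lay below all the others, and the siMYCN libraries lay slightly above siCTR. OAZ1 fell by 0.24 with siHAND2 (limma, standard error 0.04, adjusted p = 0.000266) and kept 84.9% of its control mean. In siMYCN it differed by 0.05 (95% interval -0.04 to 0.13, limma, adjusted p = 0.377), a sign that turned after median-ratio rescaling and quantile normalization (-0.01 in each). The knockdowns differed from each other by -0.28 (limma, adjusted p = 4.3e-05).

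OAZ2 (chr15:64687573-64703281), a second antizyme, had CPM levels of 46.7, 47.0 and 46.6 in the control libraries, 55.7, 53.5 and 57.4 under siMYCN and 55.1, 53.4 and 53.3 under siHAND2. Every knockdown library lay above every siCTR library, and the knockdowns overlapped. OAZ2 rose by 0.24 in siMYCN (standard error 0.05, limma, adjusted p = 0.000645) and by 0.20 in siHAND2 (limma, adjusted p = 0.00339). These were 119% and 115% of the control mean. The knockdowns differed by -0.04 (95% interval -0.14 to 0.06, limma, adjusted p = 0.549). In siHAND2 the antizyme transcripts therefore went in opposite directions, OAZ1 lower and OAZ2 higher.

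AZIN1 (chr8:102826308-102893864), the ODC1 homologue that holds antizyme away from ODC1, had CPM levels of 327, 327 and 324 in the control libraries, 362, 372 and 391 under siMYCN and 324, 322 and 356 under siHAND2. The siMYCN libraries lay above all others, and 2 of the 3 siHAND2 libraries lay at the siCTR level. AZIN1 rose by 0.20 in siMYCN (limma, standard error 0.05, adjusted p = 0.00245) and reached 115% of its control mean. In siHAND2 the difference was 0.03 (limma, adjusted p = 0.607), and the sign turned after median-ratio rescaling and without siHAND2 replicate 3 (-0.01 in each). The direct difference was -0.17 (limma, adjusted p = 0.011), a call lost without siMYCN replicate 3 (-0.14, adjusted p = 0.0596), without siHAND2 replicate 2 (-0.14, adjusted p = 0.0552) and with no intensity trend (adjusted p = 0.051). AZIN1-AS1, on the other strand, overlaps AZIN1 and averaged 1.38 to 1.42 CPM per group, and the use of strand in counting is not given in the sources used here.

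**Figure D3:**
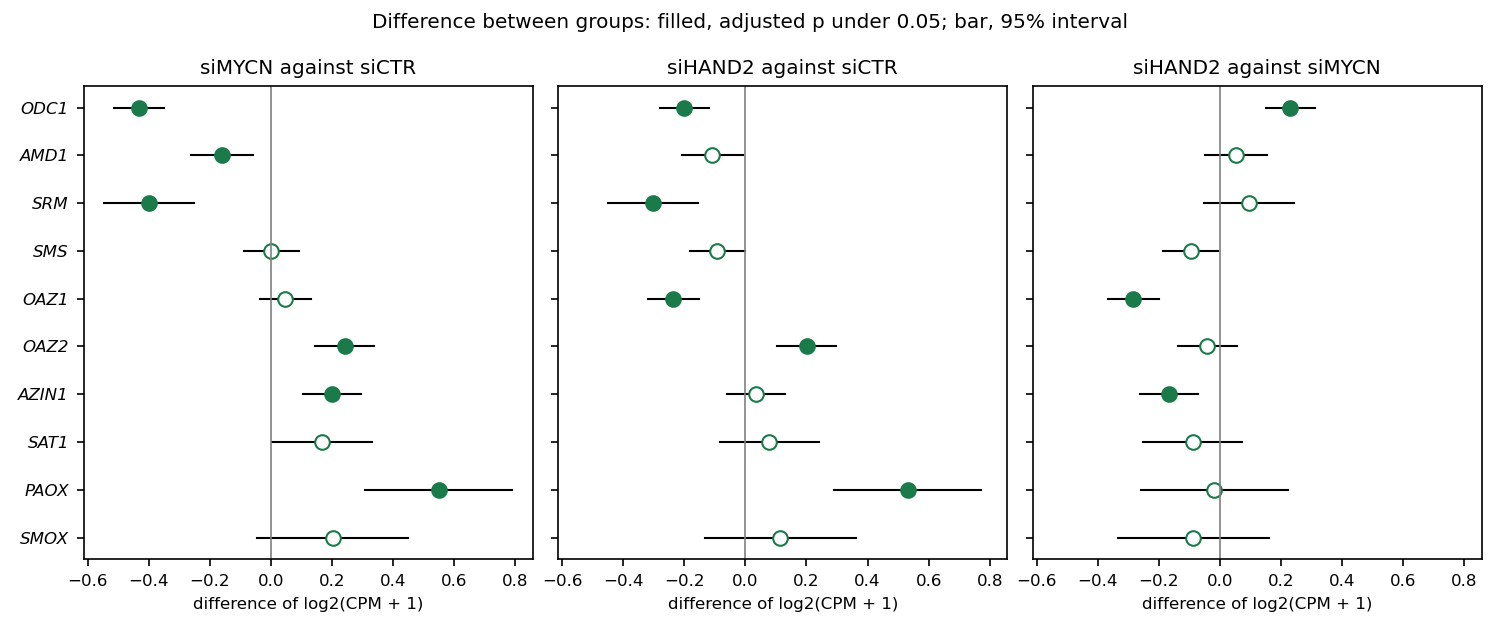
Difference of log2(CPM + 1) between groups (horizontal axis) for the 10 polyamine genes in the 3 comparisons; points are limma estimates, bars 95% intervals, and filled points have an adjusted p under 0.05. ODC1 and SRM lie left of 0 and OAZ2 and PAOX right of 0 in both comparisons with siCTR, and ODC1, OAZ1 and AZIN1 are filled in the direct comparison.

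The catabolic genes were the lowest of the set. SAT1 (chrX:23783173-23786226), the acetyltransferase that starts polyamine breakdown and export, had CPM levels of 10.2, 9.62 and 9.92 in the control libraries, 10.2, 12.4 and 11.2 under siMYCN and 10.5, 10.5 and 10.6 under siHAND2. The siMYCN and siCTR libraries overlapped. All 3 siHAND2 libraries lay above siCTR, by little. The differences were 0.17 in siMYCN (95% interval 0.00 to 0.33, limma, adjusted p = 0.103) and 0.08 in siHAND2 (limma, adjusted p = 0.478), neither past the test. Without siMYCN replicate 1 the siMYCN value was 0.23 and passed it (adjusted p = 0.0424).

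PAOX (chr10:133379261-133391694), which oxidises acetylated polyamines, had CPM levels of 1.65, 1.97 and 1.59 in the control libraries, 2.84, 3.49 and 2.72 under siMYCN and 3.17, 3.09 and 2.61 under siHAND2. All 6 knockdown libraries lay above all siCTR libraries, and the knockdowns overlapped. PAOX rose by 0.55 in siMYCN (standard error 0.11, limma, adjusted p = 0.00136) and by 0.53 in siHAND2 (limma, adjusted p = 0.00218), the largest differences among the members. On the CPM scale the means were 173% and 170% of siCTR, since adding 1 CPM shrinks the fold of a gene this low. PAOX shares 11678 bases with AL360181.3, a gene annotated on the same strand, and the authors' rule for reads that fit several genes is not given in the sources used here. AL360181.3 had CPM levels of 2.67 ± 0.323 in the control libraries, 2.31 ± 0.525 under siMYCN and 2.06 ± 0.509 under siHAND2 (SD, n = 3 each). The sum of PAOX and AL360181.3 differed by 0.23 in siMYCN (limma, adjusted p = 0.0940) and by 0.15 in siHAND2 (limma, adjusted p = 0.278), so neither PAOX call held for the sum, which was formed after the data were seen.

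SMOX (chr20:4120980-4187747), spermine oxidase, had CPM levels of 4.77, 5.13 and 3.99 in the control libraries, 5.92, 4.83 and 5.65 under siMYCN and 5.26, 5.89 and 4.18 under siHAND2. The groups overlapped in each comparison. The differences were 0.20 in siMYCN (95% interval -0.04 to 0.45, limma, adjusted p = 0.193) and 0.11 in siHAND2 (limma, adjusted p = 0.495). The counting error alone, at the shallowest library, gave a coefficient of variation of 9.68% for SMOX, 13.6% for PAOX and 6.70% for SAT1, against 1.43% for ODC1. A difference of the size seen for OAZ2 was thus less detectable in the catabolic genes than in ODC1.

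Other genes of the pathway were taken from a list of 30, of which 23 passed the filter. In siMYCN 9 fell and 2 rose, and in siHAND2 4 fell and 1 rose (limma, adjusted p under 0.05). The siMYCN count was 11 of 23, beside 35.9% of all tested genes, and the siHAND2 count was 5 of 23, a smaller share than the 29.9% of all tested genes. The median difference was -0.07 in siMYCN and -0.08 in siHAND2, beside 0.06 and 0.04 over all tested genes. The siHAND2 count of 5 was 3 in fits without siCTR replicate 1, siCTR replicate 2, any of the 3 siMYCN libraries or siHAND2 replicate 2. In the direct comparison 5 were higher and 2 lower in siHAND2, a count of 7 of 23, near the 26.9% of all tested genes, that was 4 without siMYCN replicate 1.

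Of 6 tested genes of arginine and ornithine supply, 3 fell in siMYCN and 2 in siHAND2, and none rose. Of all tested genes, 11.4% fell and 24.5% rose in siMYCN, and 11.8% fell and 18.1% rose in siHAND2. ALDH18A1, which makes the precursor shared by proline and ornithine, had CPM levels of 229, 231 and 225 in the control libraries, 183, 179 and 182 under siMYCN and 188, 177 and 187 under siHAND2. It fell by 0.33 in siMYCN (limma, adjusted p = 8.68e-06) and by 0.31 in siHAND2 (limma, adjusted p = 1.4e-05), with no overlap with siCTR. SLC25A15, the mitochondrial ornithine carrier, had CPM levels of 50.2 ± 0.547 in the control libraries, 43.0 ± 0.885 under siMYCN and 44.1 ± 0.363 under siHAND2 (SD, n = 3 each). It fell by 0.22 (limma, adjusted p = 0.00145) and by 0.18 (limma, adjusted p = 0.00628). For both genes the libraries of the 2 knockdowns overlapped.

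Of 7 genes of methionine supply and salvage, 3 fell and 1 rose in siMYCN, beside 35.9% of all tested genes called. In siHAND2 1 fell and 1 rose, a share near the 29.9% of all tested genes. These were ENOPH1 (-0.15, limma, adjusted p = 0.0455) and APIP (0.17, limma, adjusted p = 0.048), both enzymes of the salvage route and named after their values were seen. These calls were lost in 10 (ENOPH1) and 13 (APIP) of 18 alternatives, among them the fits without siCTR replicate 1 (-0.12, adjusted p = 0.187, and 0.20, adjusted p = 0.0696). APIP was also higher in siHAND2 than in siMYCN (0.19, limma, adjusted p = 0.0355), a call lost in 7 of 18, among them without siHAND2 replicate 3 (0.13, adjusted p = 0.133). MAT2A, the enzyme that makes S-adenosylmethionine, the substrate of AMD1, fell by 0.20 (limma, adjusted p = 0.0055) and its regulatory subunit MAT2B by 0.22 (limma, adjusted p = 0.00118). MTAP, which recycles the methylthioadenosine left by SRM and SMS, fell by 0.25 (limma, adjusted p = 0.00197). In siHAND2 the differences of MAT2A, MAT2B and MTAP were -0.05 (adjusted p = 0.475), -0.03 (adjusted p = 0.686) and -0.12 (adjusted p = 0.114) by limma, none past the test. That of MTAP passed it without siHAND2 replicate 3 (-0.16, adjusted p = 0.0243) and after median-ratio rescaling (-0.16, adjusted p = 0.026). The direct comparison separated the knockdowns for MAT2B (0.20, limma, adjusted p = 0.00407). For MAT2A (0.15, limma, adjusted p = 0.0385) the call was lost in 8 of 18 alternatives, among them the fits without siCTR replicate 2, siMYCN replicate 1 or 3, and siHAND2 replicate 1 or 3 (0.10 to 0.15). For MTAP the difference was 0.13 (limma, adjusted p = 0.0861), and it passed the test without siMYCN replicate 3 (0.18, adjusted p = 0.039) or siHAND2 replicate 1 (0.17, adjusted p = 0.0453), after median-ratio rescaling (0.15, adjusted p = 0.0382) and after quantile normalization (0.17, adjusted p = 0.0243). ADI1, a late enzyme of the salvage route, went the other way. It had CPM levels of 28.5 ± 1.18 in the control libraries, 34.8 ± 1.24 under siMYCN and 27.6 ± 0.863 under siHAND2 (SD, n = 3 each), a rise of 0.28 in siMYCN (limma, adjusted p = 0.00088) and a difference of -0.33 between the knockdowns (limma, adjusted p = 0.000276).

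Spermidine is the donor for hypusine, a modified residue of the translation factor eIF5A. EIF5A had CPM levels of 298, 308 and 291 in the control libraries, 251, 229 and 234 under siMYCN and 244, 240.4 and 225 under siHAND2. It fell by 0.33 in siMYCN (limma, adjusted p = 4e-05) and by 0.34 in siHAND2 (limma, adjusted p = 3.18e-05), and kept 79.6% and 79.1% of its control mean. The hypusine-forming enzymes did not pass the test. For DHPS the differences were -0.02 with siMYCN (adjusted p = 0.777, limma) and -0.08 with siHAND2 (adjusted p = 0.192, limma). For DOHH they were 0.30 (adjusted p = 0.0646) and 0.16 (adjusted p = 0.346). EIF5A was the only one of 4 hypusination genes past the test in either knockdown, beside 35.9% (siMYCN) and 29.9% (siHAND2) of all tested genes. The DOHH value in siMYCN passed the test in the fit of the 2 groups alone (adjusted p = 0.0384) and without siMYCN replicate 2 (0.42, adjusted p = 0.0148) or siHAND2 replicate 3 (adjusted p = 0.0297).

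Of 4 tested transporters, 2 fell in siMYCN and none passed the test in siHAND2, beside 35.9% and 29.9% of all tested genes called. SLC47A1, an organic cation exporter of the cell membrane, had CPM levels of 5.78, 7.41 and 6.79 in the control libraries, 4.87, 3.95 and 3.97 under siMYCN and 6.18, 5.97 and 5.85 under siHAND2. It fell by 0.54 in siMYCN (limma, adjusted p = 0.000573), where its libraries lay below all others, and the knockdowns differed by 0.42 (limma, adjusted p = 0.00542). ATP13A3, a polyamine-transporting ATPase, differed by -0.06 in siMYCN (limma, adjusted p = 0.417) and by -0.11 in siHAND2 (limma, adjusted p = 0.126), with overlapping groups. The siHAND2 value was -0.15 and passed the test after median-ratio rescaling (adjusted p = 0.0256), and was -0.16 without siHAND2 replicate 3 (adjusted p = 0.013). The siMYCN value was -0.13 and passed the test after quantile normalization (adjusted p = 0.0383).

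**Figure D4:**
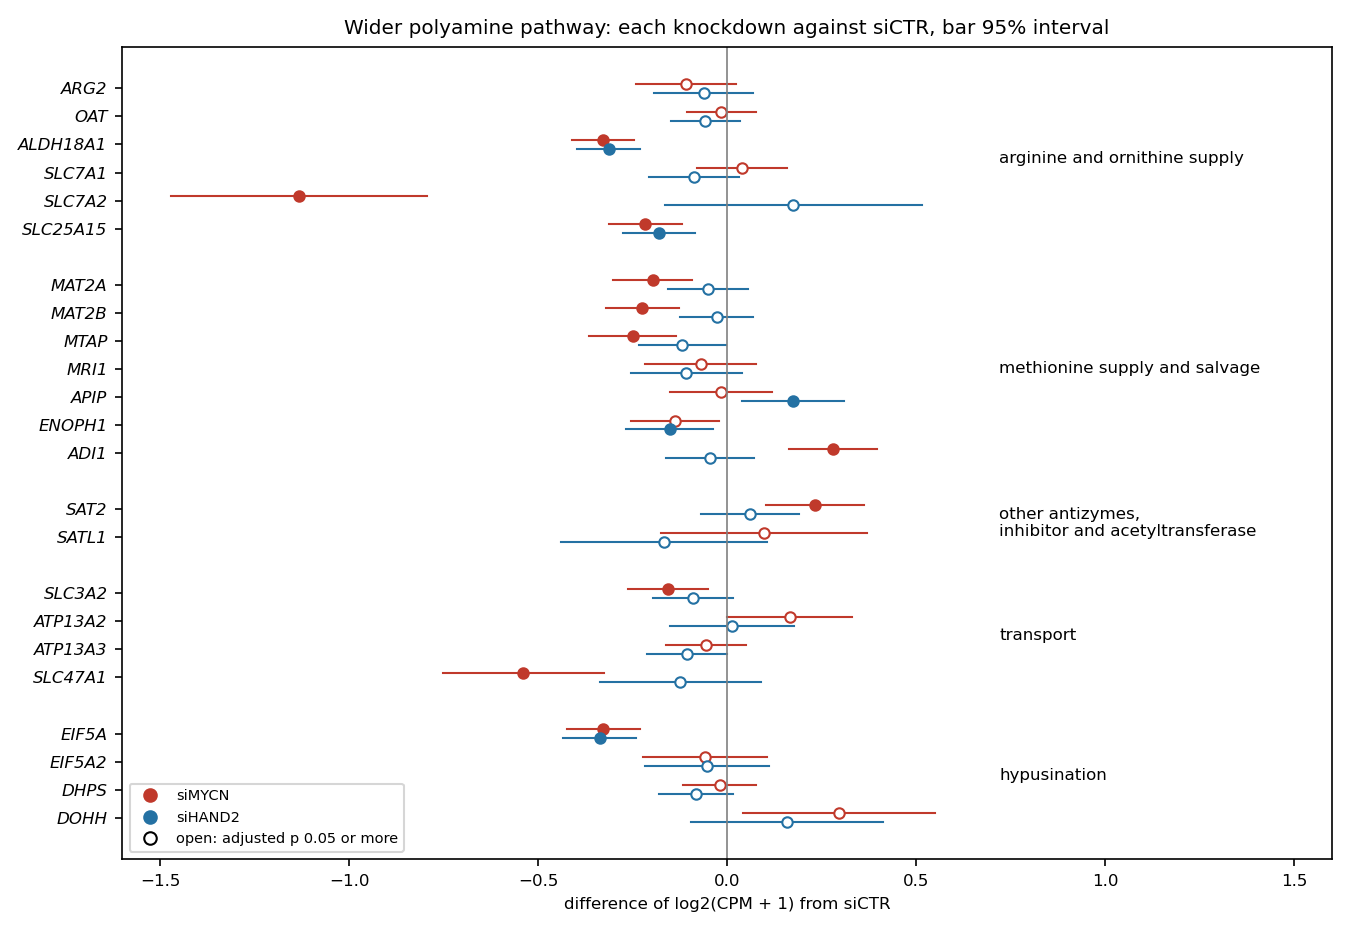
Difference of log2(CPM + 1) from siCTR (horizontal axis) for the 23 tested genes of the wider pathway, by role; red siMYCN, blue siHAND2, points limma estimates, bars 95% intervals, open points with an adjusted p of 0.05 or more. ALDH18A1, SLC25A15 and EIF5A are filled left of 0 in both knockdowns, and MAT2A, MAT2B and MTAP are filled left of 0 in siMYCN.

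The genes with the pattern most like that of ODC1 were sought among 11200 other genes whose mean reached 5 CPM. By Pearson correlation of log2(CPM + 1) over the 9 libraries, which form 3 groups, they were RACK1 (0.995), EIF3L (0.994) and DAAM2 (0.994). RACK1, a protein of the small ribosomal subunit, had CPM levels of 1642 ± 61.3 in the control libraries, 1164 ± 9.16 under siMYCN and 1391 ± 22.4 under siHAND2 (SD, n = 3 each). EIF3L, a subunit of a translation initiation factor, measured 569 ± 14.2, 436 ± 7.79 and 511 ± 8.46 CPM in the same order. DAAM2, a formin-type actin regulator, measured 19.1 ± 1.44, 9.91 ± 0.103 and 14.3 ± 0.414 CPM. These genes were picked for their likeness to ODC1 over the same libraries. Their shared order, lowest in siMYCN and intermediate in siHAND2, follows from that choice.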

How the data were processed

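RNA-seq of 9 LAN5 libraries was used, 3 per siRNA. The authors deposited 1 table of CPM with a constant of 0.0001 in every value. The submitters' processing notes name STAR 2.5.1, Partek, hg19 and GRCh37. Gene starts in the table lay within 5000 bp of the GRCh38 RefSeq start for 91.4% of 18215 matched symbols, and of the GRCh37 GENCODE start for 5.62% of 18635, so coordinates are given as GRCh38, with the end set 1 base before the stop in the table. The counting tool, strand use and annotation are not given in the sources used here. Low CPM values, those up to 20 times a library's smallest step, fell on a whole multiple (within 0.02 of a step) in 80.1% to 81.4% of cases. That was too few for a count test, so the step served only for depth. The coefficients of variation drawn from that depth cover counting error only. The 95% intervals are those of the limma fit.

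Columns were matched to samples by name. Genes that reached 1 CPM in 3 or more libraries were fitted with limma 3.58.1 in R 4.3.3 (log2(CPM + 1), 1 mean per group over all 9 libraries, moderated variances with a mean-variance trend and a prior of 10.1 degrees of freedom), two-sided, with Benjamini-Hochberg adjustment over the 14495 genes of each comparison and a threshold of 0.05. A fold on this scale understates the change of low genes. The model was tested on simulated data. The members and gene lists were chosen with earlier results of these data known. Of the wider list, EIF5A, DHPS, DOHH, MAT2A, MTAP and ATP13A3 were named throughout, with the 3 called genes of at least 5 mean CPM and the largest change per comparison. Levels per kilobase used the canonical transcript length in GENCODE (GRCh37), and sequences came from RefSeq (GRCh38.p14). Alternatives were pseudocounts of 0.1 and 5, no filter, a filter of 5 CPM, median-ratio and quantile scaling, 2 groups alone, no intensity trend, a replicate block and each library left out. The sum of PAOX and AL360181.3 was added after seeing the data.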

Additional observations from a re-analysis of the deposited data

How the results depend on the processing

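The counts of members called ranged from 5 to 6 in siMYCN, 5 to 7 in siHAND2 and 2 to 4 in the direct comparison over the fits that left out 1 library. Those of wider pathway genes ranged from 10 to 14, 3 to 6 and 4 to 8. With no filter, and with 2 groups alone, the wider counts were 3 in siHAND2 and 4 in the direct comparison, and with no intensity trend the siHAND2 count was 3. Counts over all genes stayed within 1.5 times of their main value (4013 to 5854, 3075 to 4290 and 2909 to 3940 with 1 library left out). Rescaling took the share of all calls that were higher in siMYCN from 68.3% to 51.2% (median-ratio) and 49.3% (quantile), and in siHAND2 from 60.6% to 47.1% and 47.8%.

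Values that changed sign did not pass the test in either fit. After median-ratio rescaling these were SMS (-0.056) and OAZ1 (-0.010) in siMYCN, AZIN1 (-0.0064) in siHAND2 and EIF5A (0.0076) and ENOPH1 (0.0022) between the knockdowns. After quantile normalization they were SMS (-0.050) and OAZ1 (-0.0096) in siMYCN and EIF5A (0.011), ENOPH1 (0.017) and ATP13A3 (0.010) between the knockdowns. With 1 library left out, the values ran from -0.021 to 0.027 for SMS and from -0.036 to 0.019 for APIP in siMYCN, and in siHAND2 from -0.011 to 0.059 for AZIN1 and from -0.055 to 0.00060 for MAT2B. Between the knockdowns they ran from -0.0029 to 0.086 for AMD1, from -0.071 to 0.064 for PAOX, from -0.18 to 0.026 for SMOX, from -0.036 to 0.028 for EIF5A, from -0.075 to 0.037 for ENOPH1 and from -0.00024 to 0.043 for ALDH18A1. The cause was not tested.

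With the replicate number as a block, members called numbered 6, 6 and 3 and wider genes 13, 7 and 8. Calls over all tested genes rose as well. In siMYCN 4014 were higher and 1881 lower, beside 3556 and 1653 in the main fit. In siHAND2 these were 3143 and 1946, beside 2630 and 1709, and in the direct comparison 2080 and 2609, beside 1650 and 2242. With the block, AMD1 passed the test in siHAND2 (-0.11, limma, adjusted p = 0.0400). So did DOHH and ENOPH1 in siMYCN, MTAP in siHAND2 and between the knockdowns, and ATP13A3 in siHAND2. The numbers are not stated to mark a shared culture or day. Of the same-number correlations of deviations, 6 of 9 were over 0.1. The same number correlated best in 15 of 18 pairings, each with 3 candidate libraries. Whether same-numbered libraries share an effect was not tested, and the main fit has no term for it. Counting error limits PAOX, SMOX and SAT1 most.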

Other observations

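SLC7A2, a carrier of arginine and other cationic amino acids, had the largest difference of the wider list and was singled out after its values were seen, because its mean was under 5 CPM. It had CPM levels of 4.22, 4.31 and 3.32 in the control libraries, 1.25, 0.690 and 1.99 under siMYCN and 5.03, 4.26 and 4.43 under siHAND2. The siMYCN libraries lay below all others. It fell by 1.13 on the log2(CPM + 1) scale in siMYCN (standard error 0.16, limma, adjusted p = 4.89e-05), and the knockdowns differed by 1.31 (limma, adjusted p = 1.09e-05). In siHAND2 the difference from siCTR was 0.18 (limma, adjusted p = 0.444).

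SAT2, a relative of SAT1 that was also singled out after its values were seen, had CPM levels of 15.8 ± 0.606 in the control libraries, 18.8 ± 0.287 under siMYCN and 16.6 ± 0.517 under siHAND2 (SD, n = 3 each). It rose by 0.23 in siMYCN (limma, adjusted p = 0.00719) with no overlap with siCTR. The call was lost after quantile normalization (0.15, adjusted p = 0.0567).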
